A study of Mus musculus with 36 samples.

Results

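The receptors for the monoamines, acetylcholine and histamine were taken as the genes whose symbol begins with Htr1 to Htr7, Drd1 to Drd5, Adra1 or Adra2, Chrna, Chrnb, Chrnd, Chrne or Chrng, or is a β-adrenoceptor gene, Chrm1 to Chrm5 or Hrh1 to Hrh4. The rule found 53 members among the 24421 genes of the count tables, of which 14 were serotonin, 5 dopamine, 9 adrenergic, 5 muscarinic, 16 nicotinic and 4 histamine receptor genes. Poly(A) RNA of the cerebellum and the hippocampus was sequenced from the same 18 adult C57/BL6 mice. Controls (6) carried 2 floxed *Pogz* alleles and no *Cre* (Nes+/+; Pogz fl/fl), *Pogz* cKO+/- mice (6) carried Nes Cre/+; Pogz fl/+, and *Pogz* cKO-/- mice (6) carried Nes Cre/+; Pogz fl/fl, with 3 males and 3 females each. Floxed *Pogz* was thus common to all groups, while *Cre*, driven by the *Nestin* promoter of neural progenitors, was carried by both mutant groups and absent from every control, so that in contrasts with controls effects of *Cre* and of the deletion cannot be told apart.

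These receptors carry the signals of the diffuse modulatory systems, whose cell bodies lie mostly in brainstem, midbrain, hypothalamus and basal forebrain. All but the nicotinic receptors and the serotonin 3 receptors act through G proteins: one group (for example *Htr2c*, *Chrm3*, *Adra1b*, *Hrh1*) through Gq and phospholipase C, another (*Htr1b*, *Drd2*, *Chrm4*, *Adra2a*, *Hrh3*) through Gi and lower cyclic AMP, and a further one (*Htr6*, *Htr7*, *Drd5*, *Adrb1*, *Hrh2*) through Gs and higher cyclic AMP. Nicotinic and serotonin 3 receptors are pentameric ion channels assembled from the subunits that *Chrna*, *Chrnb* and *Htr3* genes encode.

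Levels are given as CPM, the counts of a gene per 1000000 counts of the library. Counts on genes totalled 21421850 to 32544929 per cerebellar library and 17609321 to 45544188 per hippocampal library. *Pogz*, whose transcript is only partly deleted, had 99.6 ± 15.2 CPM (SD, n = 6) in control, 77.7 ± 5.78 (n = 6) in cKO+/- and 65.8 ± 7.34 (n = 6) in cKO-/- cerebellum, and 90.9 ± 1.24 (n = 6), 76.4 ± 2.27 (n = 6) and 61.7 ± 3.55 (n = 5) in hippocampus. The hippocampal cKO-/- library of Sample_1160 stood apart and was left out of the hippocampal results. The study excluded 1 library that it does not name. In it 21 of the 37 receptor genes tested lay outside the range of the other 17 libraries, 16 below and 5 above, beside 73.9% of all 14339 tested genes. In the cerebellum, the libraries of Sample_933, Sample_1433 and Sample_936 held 2177, 2935 and 2807 CPM of *Ttr*, the choroid plexus gene for transthyretin, against at most 1.13 CPM in controls. Hippocampal *Ttr* reached 4557 and 2169 CPM in the controls Sample_1129 and Sample_1170. Among hippocampal mutants it reached 4542 CPM in Sample_1385, 1018 in Sample_1219, 591 in Sample_1189 and 119 in Sample_1433. The remaining hippocampal libraries held at most 26.6 CPM. The hippocampal control of Sample_1129 held 49.4 CPM of *Gabra6*, a cerebellar granule cell gene, against at most 1.09 CPM in the other hippocampal libraries. *Gabra6* in the cerebellum (498 to 1075 CPM) and *Neurod6* in the hippocampus (141 to 247 CPM) marked both tissues as labelled.

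In control hippocampus the most abundant receptor transcripts per length were those of the muscarinic M1 receptor and the α1D adrenoceptor, and in control cerebellum that of the nicotinic β2 subunit. CPM per kilobase of gene model, the scale on which genes can be compared with each other, came to 52.8 ± 6.49 (SD, n = 6, range 46.1 to 61.3) for *Chrm1* and 37.0 ± 3.46 (33.1 to 41.6) for *Adra1d* in hippocampus. *Hrh3*, a presynaptic receptor that limits histamine release, followed at 19.4 ± 5.82 CPM per kilobase and *Chrm3* at 18.4 ± 3.94, and these neighbours did not differ beyond their spread. Among nicotinic subunits *Chrnb2* reached 14.8 ± 0.775 and *Chrna7*, which forms channels on its own, ranged from 9.30 to 15.8 CPM per kilobase. The serotonin family was led by *Htr1a*, the inhibitory receptor of pyramidal cells, with 10.9 ± 1.22 and by *Htr2c* with 8.39 ± 4.28 CPM per kilobase (range 3.04 to 14.1). *Htr2c* is also abundant in choroid epithelium, and *Ttr* ran from 0.780 to 4557 CPM over these controls. The part of choroid plexus in this *Htr2c* level was not tested. *Adra2c*, an inhibitory adrenoceptor, had 9.92 ± 0.421 CPM per kilobase. Of the dopamine receptors, *Drd5*, a D1-class receptor, led with 8.17 ± 1.15 CPM per kilobase and *Drd2* followed with 1.22 ± 0.202. *Hrh1* had 1.50 ± 0.366 CPM per kilobase.

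Cerebellar levels followed another order. *Chrnb2* stood first with 26.3 ± 2.59 CPM per kilobase (SD, n = 6) and *Hrh3* second with 7.68 ± 0.824. *Htr1b*, an autoreceptor and heteroreceptor of axon terminals, led the serotonin family with 4.51 ± 1.48, followed by *Htr5a* with 1.40 ± 0.321 CPM per kilobase. *Adra2a* (3.13 ± 0.559) and *Adra2c* (3.13 ± 0.744) could not be ordered. *Chrna7* had 2.66 ± 0.716 and *Hrh1* 1.91 ± 0.454 CPM per kilobase. Muscarinic levels per length were low, with *Chrm2* at 0.829 ± 0.471 and *Chrm4* at 0.680 ± 0.0672 CPM per kilobase, both in exons that overlap a gene on the opposite strand (*9330158H04Rik* and *Mdk*). Dopamine receptors were near the limit of counting: *Drd4* had 0.455 ± 0.154 CPM per kilobase on 10 to 26 counts per control library and *Drd5* 0.166 ± 0.0612 on 8 to 22 counts.

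**Figure D1:**
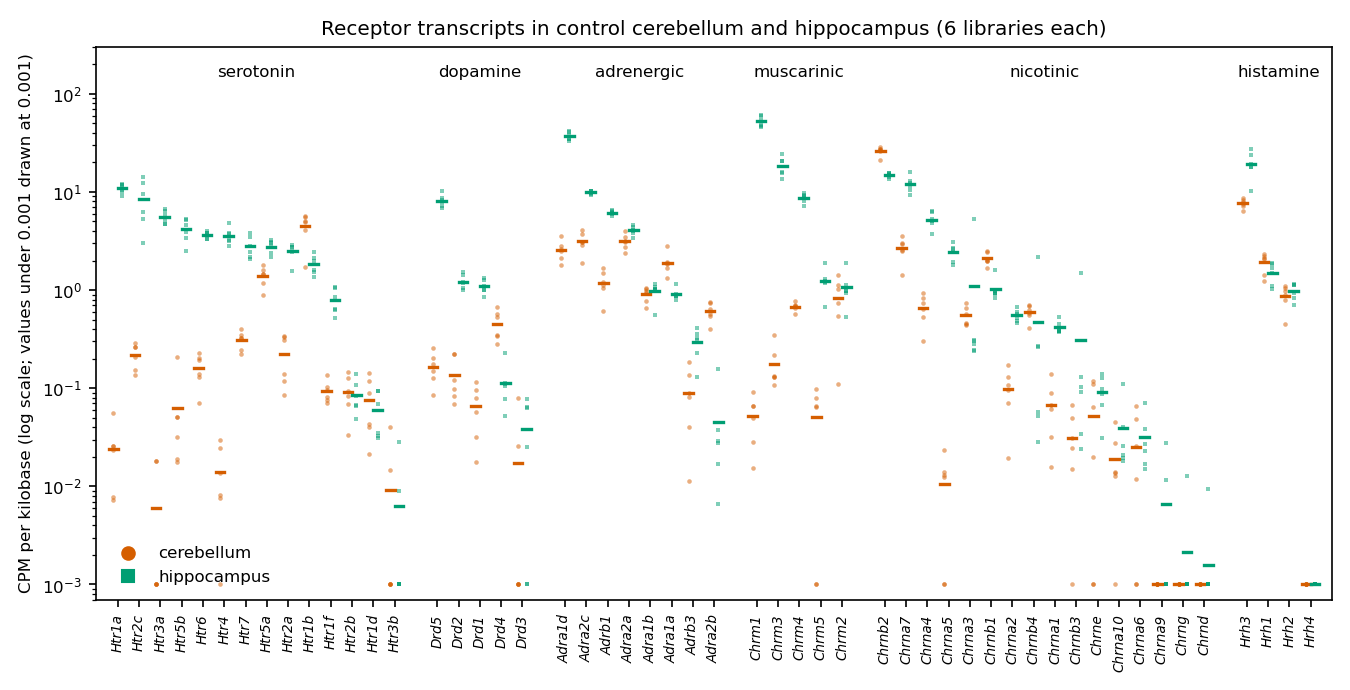
CPM per kilobase of gene model (y axis, log scale) of 52 receptor genes (x axis, by family and falling hippocampal level) in the 6 control libraries of each tissue. Points are libraries, bars are means and values under 0.001 are drawn at 0.001. *Chrm1* stands highest in hippocampus (mean 52.8) and *Chrnb2* in cerebellum (mean 26.3).

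With a filter of more than 1 CPM in at least 6 libraries of a tissue, 24 members were tested in the cerebellum and 37 in the hippocampus, so that 29 and 16 members counted as not detected for testing. In the cerebellum the 29 included all 5 dopamine, 10 serotonin and 10 nicotinic receptor genes. In both tissues 5 members stayed at or under 3 counts in every library. *Hrh4*, *Chrng* and *Chrnd*, the last 2 being subunits of the muscle receptor, and *Chrna9*, a subunit of cochlear hair cells, had at most 3 counts, as had *Htr3b*. For such genes a level under about 3 counts in a library was not detectable at this depth.

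Between the tissues, most of the genes tested differed. In controls 39 members were tested, and 33 were called at an adjusted p under 0.05 (edgeR's quasi-likelihood F-test with Benjamini-Hochberg adjustment over all genes), beside 71.9% of all 14224 genes tested. Higher in hippocampus were 27 of the 39, beside 35.2% of all genes, and higher in cerebellum were 6, beside 36.7%. Of the 39, 19 were above 1 CPM in fewer than 6 cerebellar controls and 15 of these in none, so that they passed the filter through the hippocampus, and these counts of directions follow in part from the filter. Among the 17 members above 1 CPM in all controls of both tissues, 9 were called higher in hippocampus and 5 in cerebellum. All 4 members of the muscarinic family called, all 3 dopamine receptor genes tested and 10 of 11 serotonin receptor genes called were higher in hippocampus. These directions too follow largely from the filter. Among these genes higher in hippocampus, only *Chrm4* and *Htr5a* were above 1 CPM in all cerebellar controls, and the 3 dopamine receptor genes were so in none.

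The widest gaps were those of receptors nearly absent from control cerebellum. *Chrm1* had 3 to 15 counts per library in control cerebellum (0.330 ± 0.173 CPM, n = 6) and 332 ± 40.8 CPM (n = 6) in control hippocampus, a ratio of summed counts of 1026 (95% interval 788 to 1361, counting error only). *Htr3a*, the channel-forming serotonin 3 subunit of a class of interneurons, had 2 counts in all 6 cerebellar controls together and 2765 in the hippocampal ones, a ratio of 1006 (95% interval 278 to 8311). *Htr1a* had 18 against 11322 summed counts and a ratio of 458 (289 to 773). *Htr4*, a Gs-coupled receptor, had 11 against 3901 and a ratio of 258 (144 to 517). *Chrna5*, an accessory nicotinic subunit, had 5 against 1547 and a ratio of 225 (96.3 to 694). *Chrm3* had 97 against 13534 summed counts and a ratio of 102 (83.2 to 125). For all of these the 6 hippocampal controls lay above the 6 cerebellar ones, and the largest adjusted p was 1.7e-11.

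Toward the cerebellum, *Adra2b*, an α2 adrenoceptor, had the largest difference, with 2.39 ± 0.525 CPM in cerebellum against 0.180 ± 0.217 in hippocampus (log2 -3.70 ± 0.41 SE, adjusted p = 2.41e-06). *Adra2b* was above 1 CPM in no hippocampal control, so that it passed the filter through the cerebellum, where it is high. The highest hippocampal control was Sample_1129, the library with cerebellar transcripts, which had 0.613 CPM against at most 0.148 in the other controls. Without that animal the log2 difference was -4.50. *Htr1b* had 5.23 ± 1.72 against 2.13 ± 0.475 CPM (log2 -1.22 ± 0.26), with 1 cerebellar control, Sample_1190 at 2.02 CPM, inside the hippocampal range. *Adra1a*, *Chrnb1* and *Chrnb2* had log2 differences of -0.97 ± 0.16, -0.95 ± 0.16 and -0.73 ± 0.07, and their groups did not overlap. The exons of *Htr1b* overlap those of a gene on the opposite strand, *D430036J16Rik*, and the use of strand in counting is not given in the sources used here, so that its reads cannot be told from those of that gene, as holds for *Chrnb2* and *Adar*.

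In the cerebellum, loss of *Pogz* alleles went with higher transcript levels of 5 receptors, and no receptor was called lower. Over the number of alleles lost, 5 of the 24 members tested rose, beside 13.7% of all 14027 genes called in either direction, 7.11% called higher and 6.55% called lower. They were 3 of the 4 serotonin receptor genes tested (*Htr7*, *Htr1b*, *Htr2c*), the muscarinic *Chrm3* and the adrenergic *Adra1b*. Of these, *Chrm3*, *Htr7* and *Htr2c* were above 1 CPM in only 1, 3 and 3 controls and passed the filter with the mutant libraries, where they are high, so that the count cannot be read against the share of all genes. They also rest on few control counts, 9 to 32, 20 to 33 and 19 to 40 per library. None of the 6 nicotinic or 3 histamine receptor genes tested was called. In whole tissue, more RNA per cell and more cells of a kind cannot be told apart.

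*Htr7*, a Gs-coupled serotonin receptor, had 0.687, 0.992 and 1.25 CPM (lowest, median, highest) in control, 0.747, 1.75 and 5.73 in cKO+/- and 2.0, 3.69 and 7.68 in cKO-/- cerebellum. All 6 cKO-/- libraries lay above all controls, while cKO+/- libraries spanned both. Its log2 fold change was 1.07 ± 0.22 (SE) per allele lost (edgeR adjusted p = 0.00495). For *Chrm3*, the M3 receptor, the lowest, median and highest values were 0.341, 0.421 and 1.10 CPM in control, 0.512, 1.53 and 5.63 in cKO+/- and 0.893, 2.21 and 7.88 in cKO-/- libraries. A single cKO-/- library, Sample_1160, fell inside the control range. *Chrm3* rose by a log2 of 1.26 ± 0.29 per allele (edgeR adjusted p = 0.00855).

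*Htr2c*, a Gq-coupled receptor that is very abundant in choroid epithelium and also expressed by neurons, had the largest fold change and the widest spread. Controls held 0.640, 1.11 and 1.37 CPM (lowest, median, highest), cKO+/- libraries 1.15, 4.01 and 60.4 and cKO-/- libraries 2.32, 7.74 and 43.4. Every cKO-/- library was above every control, and 4 mutant libraries stood far above the rest, with 60.4 CPM in Sample_1433, 43.4 in Sample_936, 33.9 in Sample_1385 and 29.4 in Sample_933. Per allele the log2 fold change was 1.90 ± 0.55 (edgeR adjusted p = 0.0290). Means in cKO+/- (16.8 ± 23.9 CPM, SD, n = 6) and cKO-/- (16.4 ± 17.7, n = 6) did not follow the number of alleles.

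The other 2 rises were smaller and more even. *Htr1b*, coupled to Gi, had 2.02, 5.76 and 6.67 CPM in control, 6.03, 7.56 and 8.59 in cKO+/- and 6.91, 8.70 and 11.5 in cKO-/- libraries (lowest, median, highest), with all cKO-/- libraries above all controls. This came to 0.39 ± 0.11 per allele on the log2 scale (edgeR adjusted p = 0.0220). *Adra1b*, a Gq-coupled receptor for noradrenaline, had 2.37, 3.39 and 3.78 CPM in control, 3.24, 3.77 and 4.79 in cKO+/- and 3.26, 4.86 and 7.51 in cKO-/- libraries, where again only Sample_1160 fell inside the control range. Its log2 fold change was 0.35 ± 0.09 per allele (edgeR adjusted p = 0.0182). All cKO-/- libraries lay above all controls for 3 of the 24 members, beside 2.67% of all genes tested, and below them for none, beside 1.9%. Of these 3, *Htr7* and *Htr2c* passed the filter with the mutant libraries, so that this count cannot be read against the share of all genes either.

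**Figure D2:**
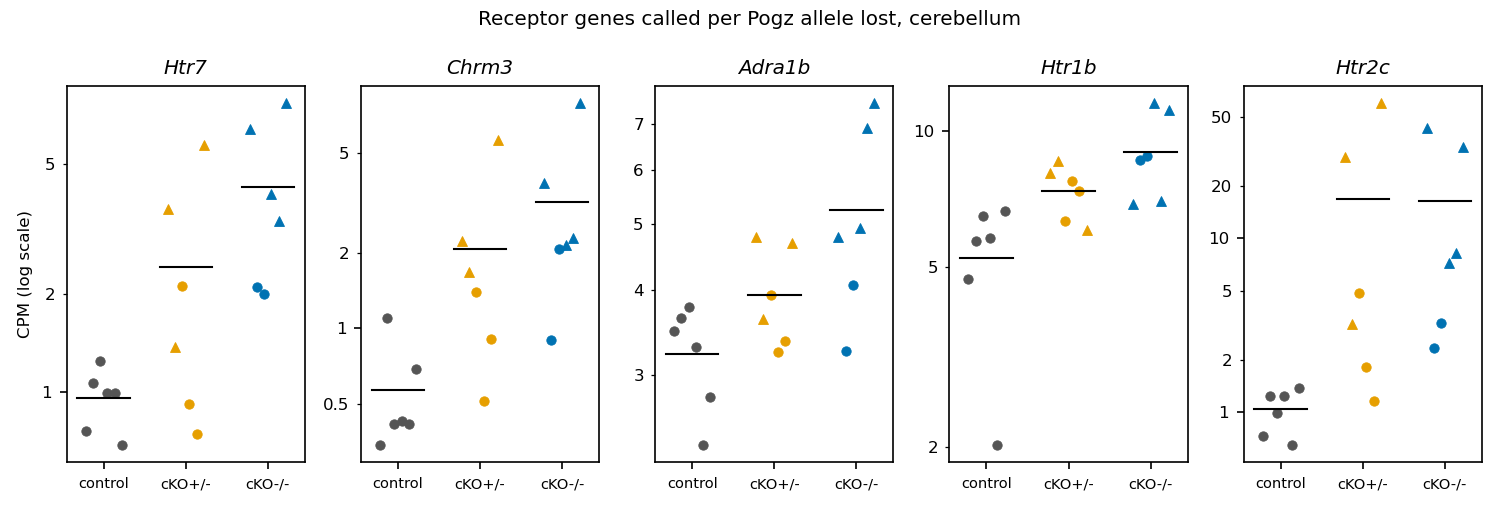
CPM (y axes, log scale, 1 panel per gene) of the 5 receptor genes called per *Pogz* allele lost in the cerebellum, in 6 control, 6 cKO+/- and 6 cKO-/- libraries. Circles are animals numbered Sample_1120 to Sample_1219, triangles those outside that range, and bars are means; for *Htr2c* 4 mutant libraries lie between 29.4 and 60.4 CPM.

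Between single genotypes and controls, the same 5 genes passed for cKO-/-, beside 12.7% of all genes (log2 2.16 for *Htr7*, 2.58 for *Chrm3*, 4.09 for *Htr2c*, 0.79 for *Htr1b* and 0.70 for *Adra1b*). No member passed in edgeR for cKO+/- against control, beside 0.342% of all genes called. There 5 members had an unadjusted p under 0.05, but the share of all genes at that threshold was not counted. *Adra2b* (log2 -0.28 ± 0.10 per allele), *Hrh3* (-0.16 ± 0.06) and *Hrh1* (0.21 ± 0.08) had unadjusted p under 0.05 but edgeR adjusted p of 0.0790, 0.0961 and 0.0792.

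Transcripts of other brain regions and cell types were measured beside these receptors. The summed level of 8 choroid plexus markers ran from 20.6 to 27.6 CPM in control, 21.9 to 3188 in cKO+/- and 20.7 to 3053 in cKO-/- cerebellum, no marker stayed at the floor, and 0 of the 5 tested passed the allele test. The 12 midbrain and brainstem markers summed to 123 to 160 CPM in control, 118 to 326 in cKO+/- and 111 to 379 in cKO-/-. Of 5 tested 1 rose, *Tph2*, which is also a gene of serotonin synthesis. *Slc17a6*, a vesicular glutamate transporter of midbrain and thalamus, reached 121 CPM in Sample_1385, 105 in Sample_1433, 66.7 in Sample_936 and 59.0 in Sample_933, the 4 libraries with most *Htr2c*, against 0.227 to 9.52 CPM in controls. It was also above all controls in Sample_1371 (25.8 CPM), Sample_1120 (25.4), Sample_938 (20.6), Sample_1379 (17.3) and Sample_1219 (12.7). The remaining mutants Sample_1176, Sample_1160 and Sample_1189 had 1.02, 0.625 and 0.187 CPM. *Tcf7l2*, a thalamic transcription factor, had 67.8 CPM in Sample_1385 against at most 7.58 in controls, while *Ttr* was at 8.63 CPM there. Thalamic markers as a list (6 genes) summed to 427 to 754 CPM in control and 672 to 969 in cKO-/- libraries, and 0 of 6 passed. Other lists had more members that rose per allele: meninges and vessels 3 of 8 (summed level 276 to 379 CPM in control and 325 to 590 in cKO-/-), astrocytes 3 of 6 (2460 to 3019 and 2874 to 3908) and microglia 2 of 6 (78.2 to 86.0 and 76.6 to 139). Of hippocampal neuron markers 2 of 4 rose, of oligodendrocyte markers 1 of 6 and of habenular markers 1 of 3, while 0 of 6 Purkinje cell, 0 of 6 granule cell and 0 of 4 striatal markers passed. Beside these counts stand 7.11% of all genes called higher, and nothing is read from lists this small. The part of these cell types in the receptor results was not tested, apart from the fits with choroid plexus and midbrain scores.

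Without the 3 libraries rich in *Ttr* all 5 receptors were still called, with log2 fold changes of 0.99 for *Htr7*, 1.22 for *Chrm3*, 1.61 for *Htr2c*, 0.42 for *Htr1b* and 0.35 for *Adra1b*. With choroid plexus and midbrain marker scores as covariates 4 were called, *Htr2c* at 0.94 and *Adra1b* no longer (0.26 ± 0.09, edgeR adjusted p = 0.106). With Sample_1385 left out only *Htr7* and *Chrm3* were called. *Htr1b* was also lost without Sample_1371, where *Adra2b* was called lower, and *Htr2c* without Sample_936 or any 1 of the controls Sample_1129, Sample_1155, Sample_1172, Sample_1190 and Sample_1192. No control animal has a number outside Sample_1120 to Sample_1219, and with a term for animals outside that range none of the 5 was called: the log2 fold changes became 0.55 for *Htr7*, 0.65 for *Chrm3*, 0.50 for *Htr2c*, 0.36 for *Htr1b* and 0.17 for *Adra1b* (edgeR adjusted p at least 0.179). The term itself was called higher for 5 of the 24 members, beside 6.65% of all genes: *Htr2c* (3.39), *Htr7* (1.41), *Chrm3* (1.61), *Chrna4* (1.63) and *Adra1b* (0.50). All animals outside the range are mutants, and *Htr2c*, *Htr7* and *Chrm3* passed the filter with mutant libraries. This count therefore cannot be read against the share of all genes.

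The same libraries also held receptors that controls hardly had. In Sample_1385 11 of the 53 members lay above 3 times the highest control, in Sample_1433 8 and in Sample_936 7, against at most 4 in any other mutant cerebellar library. The matching share of all genes was not counted, so that these counts do not set receptors apart from other genes. *Htr1a* had 6.39 CPM in Sample_1385 and 5.97 in Sample_1433 against at most 0.248 in controls, and *Drd2* had 4.69 and 4.35 against at most 0.344. *Chrna4*, the usual partner of the β2 subunit, was tested and not called (0.40 ± 0.29 per allele), with 14.9 CPM in Sample_1433, 10.6 in Sample_936 and 9.38 in Sample_1385 against 1.35 to 4.17 in controls.

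**Figure D3:**
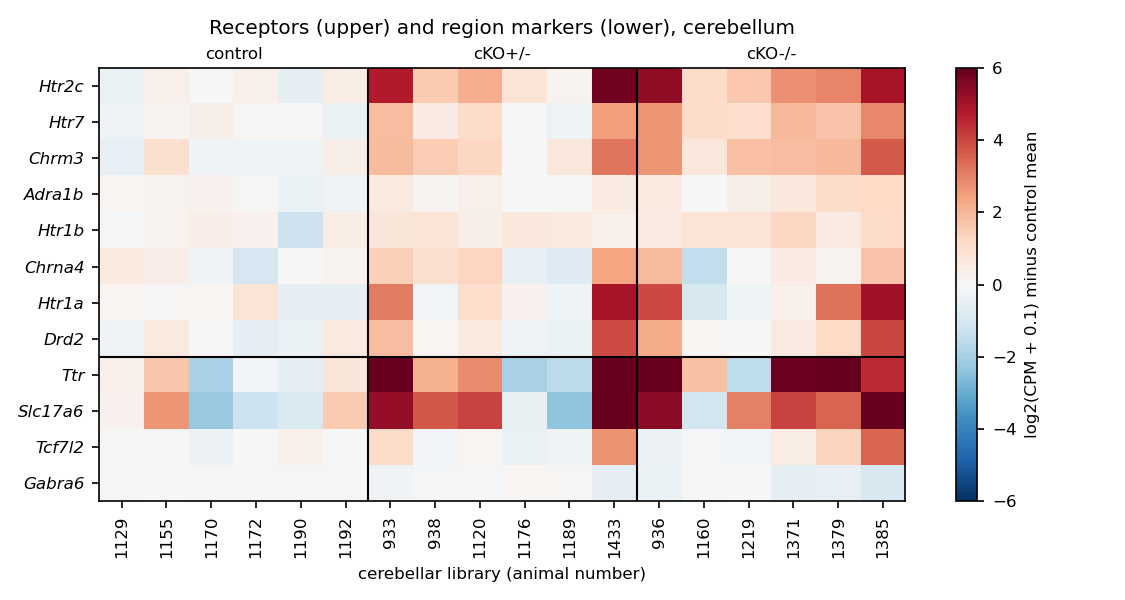
Heat map of log2(CPM + 0.1) minus the control mean, clipped at 6 in either direction, for 8 receptor genes (upper rows) and 4 region markers (lower rows) in the 18 cerebellar libraries (columns, by genotype and animal number). *Htr2c*, *Htr1a* and *Slc17a6* are all above the controls in Sample_933, Sample_1433, Sample_936 and Sample_1385, and also in Sample_1379. *Htr2c* and *Slc17a6* are above the controls in Sample_1120 and Sample_1371 as well. *Gabra6* is lowest in Sample_1385 (498 CPM).

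In the hippocampus, 4 receptors fell with the number of *Pogz* alleles lost and none rose. These were 4 of 37 members tested (10.8%), beside 4.44% of all 14339 genes called in either direction, 2.35% called lower and 2.09% called higher: the nicotinic *Chrna2*, both *Drd5* and *Drd2* of the 3 dopamine receptor genes tested, and *Htr6*. No adrenergic (8 tested), muscarinic (5) or histamine (3) receptor gene was called. The median log2 fold change per allele lost was 0.00 over the members and 0.00 over all genes.

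*Chrna2*, a subunit expressed in the hippocampus mainly by a class of dendrite-targeting interneurons of stratum oriens, had 1.62, 1.92 and 2.37 CPM (lowest, median, highest) in control and 1.34, 1.50 and 1.64 in cKO+/- libraries. The 5 cKO-/- libraries had 0.888, 1.03, 1.10, 1.19 and 1.43 CPM, all under every control, and the cKO+/- mean lay between while its libraries overlapped both groups. *Chrna2* fell by 0.38 ± 0.07 per allele on the log2 scale (edgeR adjusted p = 0.00306), on 18 to 43 counts per cKO-/- library.

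*Drd5*, coupled to Gs, had 20.8, 24.2 and 30.6 CPM in control, 14.8, 19.5 and 25.9 in cKO+/- and 12.6, 14.8, 18.1, 18.9 and 19.6 in the 5 cKO-/- libraries. No cKO-/- library reached the control range, and *Drd5* fell by 0.28 ± 0.07 per allele (edgeR adjusted p = 0.0276). *Drd2*, the Gi-coupled receptor, had 1.53, 1.84 and 2.34 CPM in control, 1.44, 1.79 and 2.18 in cKO+/- and 1.09, 1.16, 1.25, 1.33 and 1.33 in cKO-/- libraries. Control and cKO+/- levels of *Drd2* overlapped almost fully, and it fell by 0.29 ± 0.08 per allele (edgeR adjusted p = 0.0490). *Drd1* was not called, with 0.15 ± 0.09 per allele.

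*Htr6*, a Gs-coupled serotonin receptor found mainly in forebrain, had 4.51, 5.06 and 5.43 CPM in control, 3.77, 4.44 and 5.08 in cKO+/- and 2.18, 2.59, 3.96, 4.17 and 4.21 in cKO-/- libraries. The cKO-/- libraries lay under all controls, Sample_1371 and Sample_1385 farthest. It fell by 0.27 ± 0.07 per allele (edgeR adjusted p = 0.0440). All cKO-/- libraries were below all controls for 4 of the 37 members, beside 2.12% of all genes tested, and above them for none, beside 1.53%.

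**Figure D4:**
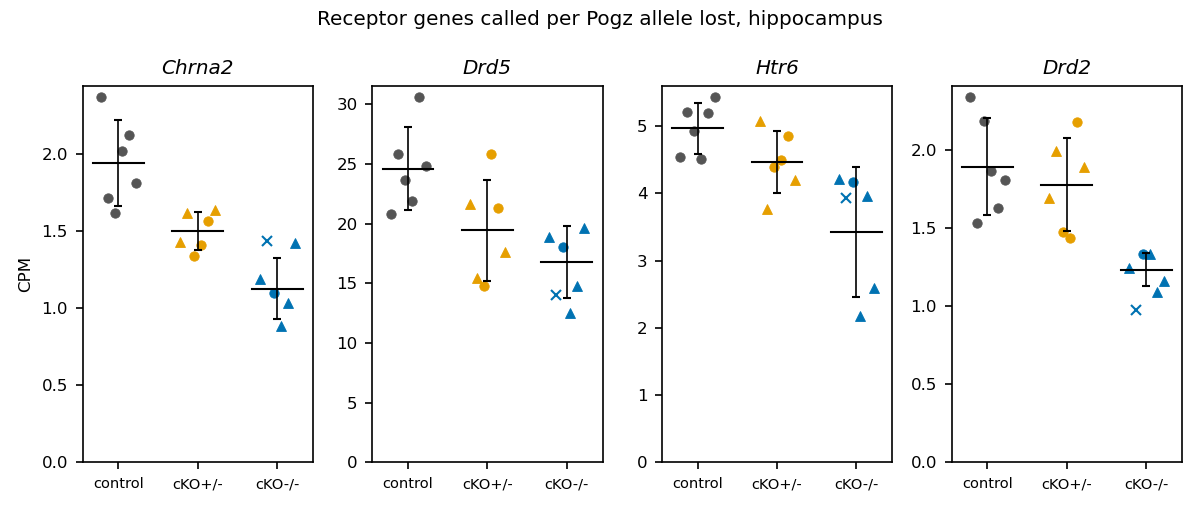
CPM (y axes, from 0) of the 4 receptor genes called per *Pogz* allele lost in the hippocampus, in 6 control, 6 cKO+/- and 5 cKO-/- libraries, with means and SD. Circles are animals numbered Sample_1120 to Sample_1219, triangles those outside, and crosses mark the cKO-/- library of Sample_1160, which is in neither the fit nor the mean; the 5 fitted cKO-/- libraries lie under every control.

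Against control, cKO-/- alone gave the same 4 genes, beside 4.87% of all genes (log2 -0.77 for *Chrna2*, -0.56 for *Drd5*, -0.55 for *Htr6*, -0.61 for *Drd2*). For cKO+/- alone none was called in edgeR, beside 0.0349% of all genes called. At an unadjusted p under 0.05 there were 11 members, but the share of all genes at that threshold was not counted. These 11 therefore do not set receptors apart from other genes. With Sample_1160 included, *Htr6* was no longer called (edgeR adjusted p = 0.111) while the other 3 were. *Chrna2* was called in each of the 17 fits with 1 animal left out, *Drd5* in 11, and *Htr6* and *Drd2* in 4 each. With the term for animal numbers none was called, and *Chrna2* had -0.42 ± 0.09 (edgeR adjusted p = 0.0535). Without the 6 libraries above 100 CPM of *Ttr* only *Chrna2* was called, at -0.44.

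Of the tested hippocampal members that were not called, *Htr2c* had the largest fold change, 0.46 ± 0.15 per allele (edgeR adjusted p = 0.0943), with 14.4, 37.5 and 66.8 CPM (lowest, median, highest) in control and 40.5, 63.6, 66.8, 67.2 and 111 in cKO-/- libraries. With the marker scores as covariates *Htr2c* was called, together with *Chrna2* alone. Choroid plexus markers summed to between 31.2 and 4938 CPM in control, 19.7 and 665 in cKO+/- and 23.5 and 5017 in cKO-/- hippocampus, and 0 of 7 tested passed. Of 8 markers of hippocampal pyramidal and granule cells 2 fell, *Wfs1* (-0.50 per allele) and *Dsp* (-0.56), beside the fall of the 4 receptors. Of 4 striatal markers tested 1 rose, *Penk* (0.43 per allele), and the list summed to 51.8 to 68.2 CPM in control and 70.3 to 88.9 in cKO-/-. The median log2 fold change of the 4 was -0.05 per allele. Of meningeal and vessel markers 2 of 8 rose, of astrocyte markers 1 of 6, and of thalamic markers 1 of 6 fell. Beside these counts stand 2.09% of all genes called higher and 2.35% called lower, and nothing is read from lists this small. The part of these cells in the receptor results was not tested.

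**Figure D5:**
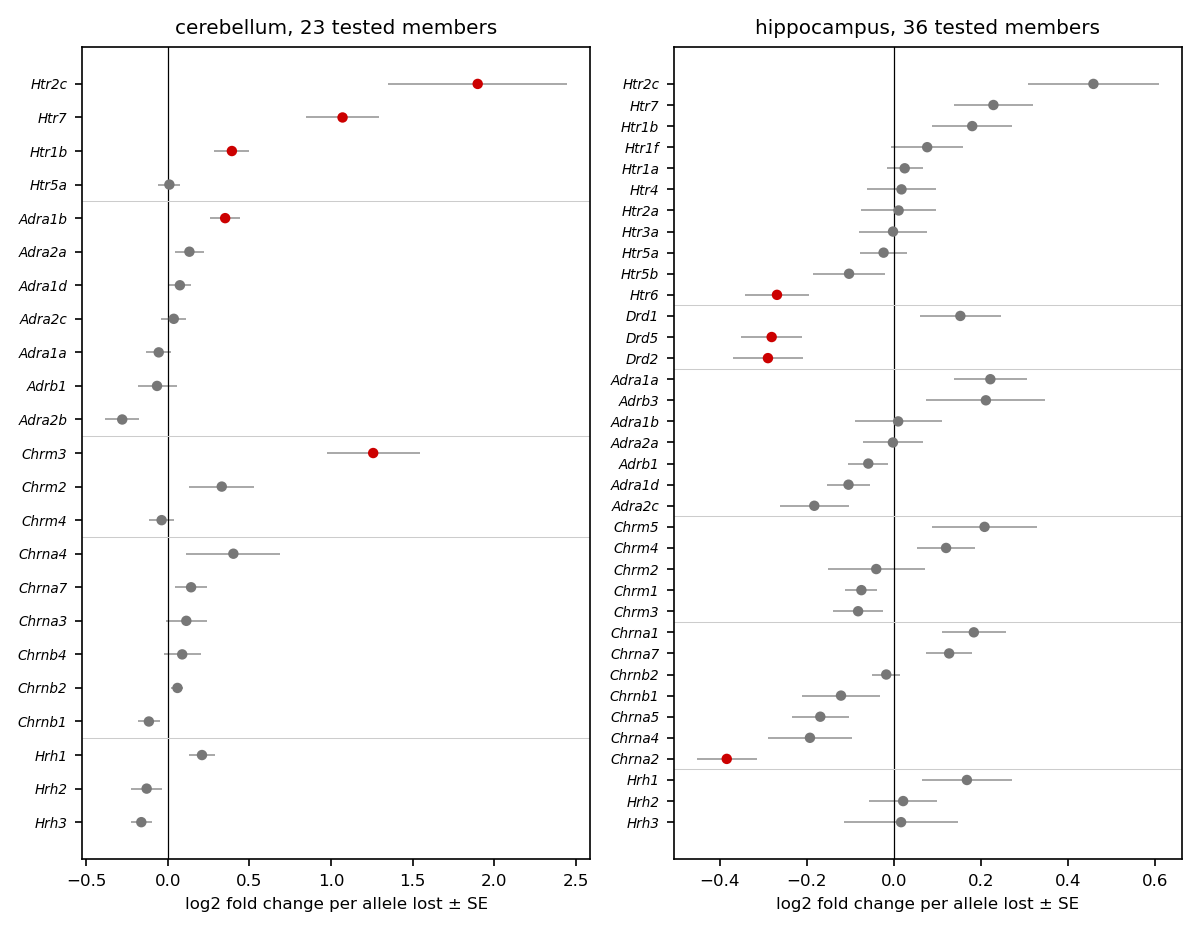
Log2 fold change per *Pogz* allele lost with its SE (x axes, differing in scale) for 23 cerebellar and 36 hippocampal members tested, grouped by family in the order serotonin, dopamine, adrenergic, muscarinic, nicotinic and histamine. Red points passed an adjusted p of 0.05: 5 in cerebellum, all above 0, and 4 in hippocampus, all below 0.

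The difference between the tissues in the allele effect was tested for the 21 members that passed the filter in both. *Chrm3* passed, with a hippocampal minus cerebellar log2 fold change of -1.27 ± 0.27 per allele (edgeR adjusted p = 0.0117), as 1 of 21 members, beside 1.49% of all 13587 genes. In the cerebellum it was above 1 CPM in only 1 control and passed the filter with the mutant libraries, so that this count cannot be read against that share. In the hippocampus *Chrm3* had 43.1, 57.9 and 76.4 CPM in control, 35.3, 50.5 and 58.7 in cKO+/- and 50.5, 50.9, 52.3, 52.9 and 56.1 in cKO-/- libraries, with overlapping groups and -0.08 ± 0.06 per allele. *Htr7* did not pass (-0.85 ± 0.25, edgeR adjusted p = 0.0817), and its hippocampal fold change was 0.23 ± 0.09 per allele. With the animal as a block *Chrm3* remained the member called, and with the term for animal numbers it was not (-0.68 ± 0.26). *Drd5*, *Drd2*, *Htr6* and *Chrna2* were under the cerebellar filter, so that no difference between the tissues was tested for them.

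The promoters of 3 of these genes are shown because *Htr7* and *Chrm3* had the 2 smallest adjusted p in the cerebellum and *Drd5* is the most abundant of the genes that fell in the hippocampus. The sequences are the 250 bases before the annotated start in RefSeq (GRCm38.p6, the build that the table coordinates match), read along the gene's strand, 5′ to 3′, with GC boxes in capitals.
Htr7 (chr19:36057361-36057610, minus strand): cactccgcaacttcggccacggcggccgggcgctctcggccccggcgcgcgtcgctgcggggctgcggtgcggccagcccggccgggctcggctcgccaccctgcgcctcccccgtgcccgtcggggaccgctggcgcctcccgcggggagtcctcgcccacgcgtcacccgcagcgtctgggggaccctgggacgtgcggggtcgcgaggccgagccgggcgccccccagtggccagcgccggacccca
Chrm3 (chr13:10360804-10361053, minus strand): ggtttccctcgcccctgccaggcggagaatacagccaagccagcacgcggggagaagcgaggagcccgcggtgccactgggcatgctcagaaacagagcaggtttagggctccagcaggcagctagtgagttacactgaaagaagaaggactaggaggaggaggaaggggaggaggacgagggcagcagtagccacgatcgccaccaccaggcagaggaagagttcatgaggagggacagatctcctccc
Drd5 (chr5:38319259-38319508, plus strand): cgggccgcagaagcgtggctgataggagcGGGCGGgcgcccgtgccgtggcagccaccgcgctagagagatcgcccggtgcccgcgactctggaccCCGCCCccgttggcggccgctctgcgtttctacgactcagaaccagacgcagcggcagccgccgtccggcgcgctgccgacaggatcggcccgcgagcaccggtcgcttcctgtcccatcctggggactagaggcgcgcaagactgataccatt
*Htr7* and *Drd5* start in GC-rich sequence, with 82.0% and 71.2% G or C and 41 and 35 CpG dinucleotides in 250 bases, while *Chrm3* has 61.2% and 10. Over all 32851 promoters of the table the medians were 52.4% and 6, and over the 40 of 53 receptor genes with an entry they were 58.0% and 9.5. On both strands 4 motifs that do not contain each other were searched: the GC box GGGCGG, the E-box CACGTG, the cAMP response element TGACGTCA and the TATA box TATAAA. A GC box was found 2 times in the *Drd5* window and in 18 of the 40 receptor promoters (45.0%), against 32.7% of all promoters. None of the 4 motifs was found in these windows of the 5 genes called in the cerebellum, and an E-box was found in 3 of the 40 receptor promoters (7.5%), against 6.02% of all. These are matches of letters and not sites of binding.

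*Htr7* spans chr19:35958729-36057360 and *Chrm3* chr13:9876613-10360803, both on the minus strand, and *Chrna2* spans chr14:66140960-66152948 and *Drd5* chr5:38319509-38322523 on the plus strand. *Htr1b* (chr9:81631392-81632552) and *Drd2* (chr9:49340662-49407214) share a chromosome and were called in different tissues.

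Among members under the hippocampal filter, some nicotinic subunit genes were high in the same libraries. *Chrna3* and *Chrnb4*, which are neighbours on chromosome 9, and *Chrnb3* encode subunits of the receptors of the medial habenula. In hippocampal controls *Chrna3* had 16.4 CPM in Sample_1172 and 0.754 to 0.972 in the other 5, *Chrnb4* 7.59 against 0.0988 to 0.947, and *Chrnb3* 6.85 against 0.111 to 0.603. The next highest *Chrna3* and *Chrnb3* values were those of the cKO+/- library of Sample_933, with 6.18 and 2.81 CPM. The habenular genes *Gpr151* and *Tac2* were also highest there, with 16.3 and 22.4 CPM in Sample_1172 and 12.1 and 12.3 in Sample_933 against at most 1.69 and 4.71 in the other libraries. In the cKO-/- library of Sample_1385 *Chrnb4* was at 9.30 and *Chrna3* at 4.43 CPM, while *Chrnb3* was at 0.413, the lowest of the fitted cKO-/- libraries, and *Gpr151* at 1.28. The 6 habenular markers summed to 57.3 to 203 CPM in control, 66.9 to 136 in cKO+/- and 68.8 to 82.5 in cKO-/- hippocampus. With Sample_1172 left out, *Chrna3* and *Chrnb4* were called higher in control cerebellum than in control hippocampus, which they were not with it.

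Between the sexes no receptor gene was called in either tissue, beside 0.0499% of all genes in the cerebellum and 0.907% in the hippocampus. At an unadjusted p under 0.05 there were 2 members in the cerebellum and 10 in the hippocampus, 9 of the 10 lower in females. The share of all genes at that threshold and its split by direction were not counted, so that nothing is read from these counts. *Chrm1* (log2 female minus male -0.19 ± 0.06, edgeR adjusted p = 0.119) and *Chrm5* (-0.61 ± 0.19, adjusted p = 0.120) were first among the 10, and DESeq2 called these 2 in the hippocampus and none in the cerebellum.

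Around the receptors, the genes of transmitter synthesis, uptake and breakdown were called in a few places. Of 12 tested in the cerebellum 3 rose and 1 fell, beside 13.7% of all genes called there. *Tph2*, the neuronal enzyme of serotonin synthesis, rose by 0.65 ± 0.12 per allele from 0.780 to 1.89 CPM between control and cKO-/- means, *Maob*, which degrades monoamines, by 0.28 ± 0.06 and *Bche*, a cholinesterase, by 0.37 ± 0.08, while *Hdc*, which makes histamine, fell by 0.26 ± 0.05. With a control mean under 1 CPM, *Tph2* passed the filter with the help of mutant libraries, and it is also the midbrain and brainstem marker that rose. In the hippocampus, where 4.44% of all genes were called, 1 of 12 rose, *Ddc*, the decarboxylase of dopamine and serotonin synthesis, by 0.40 ± 0.10.

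Of the G proteins and effectors tested in the cerebellum 3 of 24 rose, a share near that of all genes (13.7%). They were the adenylyl cyclase genes *Adcy8* (0.18 ± 0.04), *Adcy5* (0.26 ± 0.07) and *Adcy2* (0.20 ± 0.06 per allele). In the hippocampus 1 of 26 fell, *Adcy9*, by 0.14 ± 0.03. Among genes that end signalling, 4 of 19 rose and 2 fell in the cerebellum. The phosphodiesterase gene *Pde1b* rose by 0.50 ± 0.11 and *Rgs2*, whose product speeds the turning off of Gq, by 0.26 ± 0.06, while *Arrb2*, a β-arrestin, fell by 0.18 ± 0.05. *Rgs4* was called in both tissues, with 0.34 ± 0.10 in the cerebellum and 0.20 ± 0.05 in the hippocampus, and of 20 hippocampal genes of this list *Pde10a* was the 1 that fell, by 0.14 ± 0.03. Of the genes for nicotinic receptor assembly and prototoxins, 1 of 11 rose in the cerebellum (*Lypd1*, 0.20 ± 0.07) and 2 fell (*Ly6g6e*, -0.55 ± 0.13, and *Bin1*, -0.13 ± 0.04), and 0 of 12 passed in the hippocampus, at the same threshold of 0.05. Beside these counts stand the same 13.7% and 4.44% of all genes called, and nothing is read from lists this small. Median log2 fold changes of the 4 lists ranged from -0.01 to 0.04 for the cerebellum, and for the hippocampus from -0.02 to 0.08.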

How the data were processed

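Poly(A) RNA of 36 libraries (18 animals, cerebellum and hippocampus) was sequenced as 43-base paired-end reads. The authors aligned reads with STAR (250a per the submitters' processing notes, which name mm9, while the gene coordinates of the tables match GRCm38) and deposited raw counts per gene. Whether counting used strand is not given in the sources used here. No per-sample column was left unused (0).

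Genes above 1 CPM in at least 6 libraries of a tissue were tested with edgeR 4.0.16 (quasi-likelihood F-test, TMM factors) in R 4.3.3, with sex and the number of *Pogz* alleles lost as terms and Benjamini-Hochberg adjustment over all genes (threshold 0.05). SE is the log2 fold change divided by the square root of F. CPM used TMM-scaled totals of tested genes. The hippocampal library of Sample_1160 was left out of fits after filter and factors were set on all 18. This choice was inferred, since the fit without that library matches the published statistics. Tissues were compared in controls, and allele effects between tissues by an interaction contrast. Intervals and the floor of 3 counts cover counting error only. Labels do not describe litters or sequencing batches, and animal numbers are only labels. Each animal gave both tissues, and deviations of its libraries correlated with a median r of 0.217 (-0.148 to 0.435, above 0.1 in 15 of 17). Alternatives were DESeq2 1.42.0, RLE factors, no filter, thinning, covariates, an animal block and leaving out libraries. The edgeR fits were tested on simulated data.

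Members and lists were chosen with earlier results of these data known. Named were all members called per allele or between tissues in that effect, the 6 called members at either end of the tissue comparison, the 2 most abundant per family and tissue, and up to 3 genes per list and direction by adjusted p. Other members named were chosen after their values were seen. The values of 1 member are not reported here, although the counts include it.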

Additional observations from a re-analysis of the deposited data

Results flagged for a closer look

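Of 49 groups of libraries checked for a single value far from the rest, 5 held one, and chance gives about 1 in 20. *Chrm3* had 5.63 CPM in the cerebellar cKO+/- library of Sample_1433, against 0.512 to 2.23 in the other cKO+/- libraries. *Chrnb2* was low in the cerebellar control Sample_1190, with 115 CPM against 142 to 156. The hippocampal control Sample_1129 was high for *Chrnb1* (3.43 CPM against 1.77 to 2.10) and for *Adra2b* (0.613 against 0.0260 to 0.148), and it also held 49.4 CPM of *Gabra6*. *Adra1a* had 5.59 CPM in the hippocampal control Sample_1155, against 3.85 to 4.39.

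The effect of *Pogz* alleles on *Chrm3* differed between the tissues by a log2 of -1.27 (hippocampus minus cerebellum) in the test of the difference itself. *Chrm3* entered that test through the mutant cerebellar libraries, since only 1 cerebellar control was above 1 CPM.

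In the hippocampal cKO-/- library of Sample_1160, which entered no fit, 5 receptor genes lay above the other 17 libraries. *Adra2c* had 58.8 CPM against 15.0 to 34.9, *Hrh3* 109.2 against 26.8 to 92.7, *Htr3a* 19.7 against 7.39 to 15.8 and *Adrb3* 2.0 against 0.364 to 1.47. *Chrna1*, at 2.77 CPM, was level with the highest of the others.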

How the results depend on the processing

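Of the values of single named genes under the alternatives, 314 kept their call, 64 lost it and 0 changed sign. These pool the allele effects with the tissue comparison in controls, where no call was lost. Among 17 hippocampal fits with 1 animal left out, *Htr6* and *Drd2* lost their call in 13 each, *Drd5* in 6 and *Chrna2* in 0. Among 18 such cerebellar fits, *Htr2c* lost it in 7, *Htr1b* in 2, *Adra1b* in 1, and *Htr7* and *Chrm3* in 0. In the cerebellum the term for animal numbers left 1 receptor gene called (*Hrh3*, lower) in place of 5, no filter gave 7 (*Chrm5* and *Htr1f* added), and leaving out 1 animal gave 2 to 5, with *Adra2b* called lower without Sample_1371. In the hippocampus 4 became 2 without the filter, 2 after thinning, 0 with the term for animal numbers, 2 with marker scores and 1 without libraries rich in *Ttr* (an alternative chosen after seeing the data), and leaving out 1 animal gave 1 to 4. Between the sexes DESeq2 called 2 in the hippocampus in place of 0, and leaving out 1 animal gave 0 to 1. For the difference of allele effects, DESeq2 and no filter each called 2 in place of 1, the term for animal numbers 0, and leaving out 1 animal gave 1 to 2. With the animal as a block 33 members differed between the tissues and 1 in the allele effect, so that the pairing changed neither count. The causes of these changes were not tested. Counts of under about 50 per library limit hippocampal *Chrna2* and *Drd2*, the cerebellar dopamine receptors and, in cerebellar controls, *Chrm3*, *Htr7* and *Htr2c*.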
